A study of Danio rerio with 6 samples.

Results

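The lncRNAs described here are the assembled transcripts that lay on unplaced scaffolds of the zebrafish genome. They were chosen by sequence name alone: a transcript was taken if its sequence name began with KN, the prefix of scaffolds that the genome build GRCz10 does not assign to a chromosome. Of the 8363 lncRNA transcripts in the table, 466 (5.57%) met this rule. They formed 417 loci on 256 scaffolds, where a locus is one gene number given by the transcript assembler. The remaining transcripts were 7894 on chromosomes 1 to 25, from 7387 loci, and 3 on the mitochondrial genome.

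The RNA came from ZF4 cells, a fibroblast line derived from zebrafish embryos. The control group was 3 cultures kept at 28 °C, and the cold acclimated group was 3 cultures kept at 18 °C for 30 days. Both groups were the same cell line and differed in temperature and in time at it, and the line stands for cultured cells, not for a fish. The table held lncRNAs only, so the fibroblast label was not checked against protein-coding markers. Each transcript had a single value per group in FPKM (a read level corrected for transcript length and for library size). That this value is the authors' mean over the 3 cultures was inferred from the column names and the steps of the values. The spread between cultures and the depth of each library were therefore unknown. The authors' own test columns were not used here, so the differences below were neither tested nor checked against replicates. Differences are given as the log2 ratio of the cold acclimated mean over the control mean, after 0.1 FPKM was added to both, so that differences between low values are compressed.

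Long non-coding RNAs are transcripts longer than small RNAs that carry no long open reading frame. Some act in the nucleus on neighbouring genes or on chromatin, others act in the cytoplasm, and most have no known role. An unplaced scaffold is a stretch of assembled sequence whose chromosome is not known, often because it is bordered by repeats or resembles another region of the genome. The cold response of fish cells is known for changes in membrane lipids, protein folding and energy metabolism, and in ectothermic animals many transcripts differ in level between temperatures.

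The lncRNA loci gathered on part of the scaffolds. A single locus was found on 167 scaffolds (65.2%), 2 loci on 53, 3 loci on 18, 4 loci on 6, 5 loci on 7, 6 loci on 4 and 7 loci on 1. The 89 scaffolds with 2 or more loci held 250 of the loci, and the 18 with 4 or more held 90 loci and 99 transcripts. Neighbouring loci were close together: of the 161 neighbouring pairs, 67.7% overlapped or lay within 10 kb, against 22.2% of the 7362 pairs on the chromosomes. The loci of 15 pairs overlapped (9.32%, against 5.46% on the chromosomes), and those that did not overlap had a median gap of 4278.5 nt (99434 nt on the chromosomes). The table does not give the strand, so the values of overlapping transcripts are uncertain. A scaffold is far shorter than a chromosome, and the lengths of the scaffolds were not used here.

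**Figure D1:**
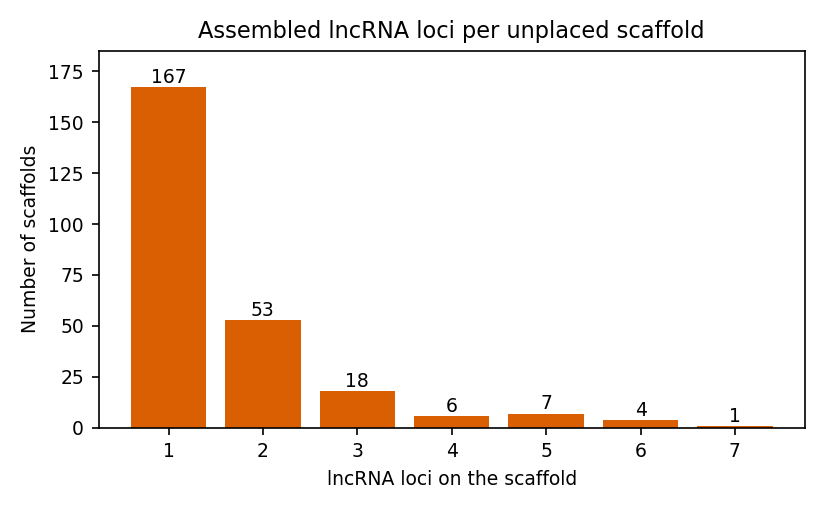
Number of unplaced scaffolds (vertical axis) with each number of lncRNA loci (horizontal axis), with the count above each bar. The bar for a single locus holds 167 scaffolds, and only 1 scaffold has 7 loci.

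Transcripts on scaffolds resembled those on chromosomes in the shares with 1 exon, 2 exons and 3 or more, but not in the highest exon numbers. A single exon was found in 320 (68.7%, 95% Wilson interval 64.3 to 72.7) against 70.3% on the chromosomes, where single chromosomes ranged from 60.7% on chromosome 11 to 81.7% on chromosome 17. A further 91 (19.5%) had 2 exons and 55 (11.8%, against 10.4%) had 3 or more, of which 41, 9, 3 and 2 had 3, 4, 5 and 6 exons. On the chromosomes 821 had 3 or more, of which 381, 156, 166 and 72 had 3, 4, 5 and 6 exons. The rest of the 821 had up to 11, while no scaffold transcript had more than 6. With only the transcript of the highest mean FPKM at each locus, the scaffold share with 1 exon was 76.7%. The median length was 578 nt (interval 525 to 657, range 200 to 8117) against 529 nt, inside the range of the single chromosomes (418 nt on chromosome 4 to 680 nt on chromosome 18). Transcripts under 300 nt made up 18.0% of the scaffold lncRNAs and 23.9% of those on chromosomes. Spliced transcripts spanned a median of 3898 nt of genome against 4334 nt, and 65 of 146 on the scaffolds spanned more than 5 kb. The upper quartile of the span differed more, at 7395 nt on the scaffolds and 16956 nt on the chromosomes. These intervals cover counting error over transcripts only, and transcripts of a locus or scaffold are not independent.

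The table names the nearest gene for part of the transcripts and does not say whether the transcript overlaps it. Such a name was rare on the scaffolds. It was given for 40 of the 466 transcripts (8.58%, interval 6.37 to 11.5) against 3163 of 7894 (40.1%) on the chromosomes. Each of the 25 chromosomes had a higher share, from 33.3% on chromosome 18 to 49.0% on chromosome 10. The 40 transcripts carried 25 names. Of these transcripts, 28 had 16 clone or accession names, 7 had 6 symbols in capitals (SPHK1, PDCL3, PDGFRB, TRPM6, ACADSB and MCC) and 5 had 3 symbols in lower case (prp, snx1b and unc5a). The names with the most scaffold transcripts were wu:fi09b08 with 5, CABZ01102124.1 with 4, and CABZ01074309.1 and unc5a with 3 each. The gene name tables held 10 of the 25 names.

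Scaffold edges were a further difference in position. Transcripts began within 100 nt of the start of the sequence in 28 cases (6.01%) on 17 scaffolds, 7 of them at position 1, and 11 of the 28 lay on KN150031.1. Within 1000 nt it was 68 transcripts (14.6%), against 3 of 7894 on the chromosomes. The scaffold transcripts lay on 256 short sequences and the others on 25 long ones, so these shares are not like measures. The 28 had a median length of 1050 nt. The far ends of the scaffolds were not examined.

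In control cells the median level was 1.25 FPKM (interval 1.19 to 1.34) on the scaffolds and 1.11 FPKM on the chromosomes. The single chromosomes ranged from 0.933 FPKM on chromosome 9 to 1.2508 FPKM on chromosome 15, so the scaffold median (1.2523 FPKM) stood just above that range. In cold acclimated cells the median was 0.771 FPKM (interval 0.641 to 0.873) against 0.735 FPKM, inside the range of 0.606 FPKM on chromosome 23 to 0.866 FPKM on chromosome 15. A mean of both groups above 10 FPKM was reached by 22 scaffold transcripts (4.72%, against 2.63%), and 240 (51.5%) had a mean under 1 FPKM.

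**Figure D2:**
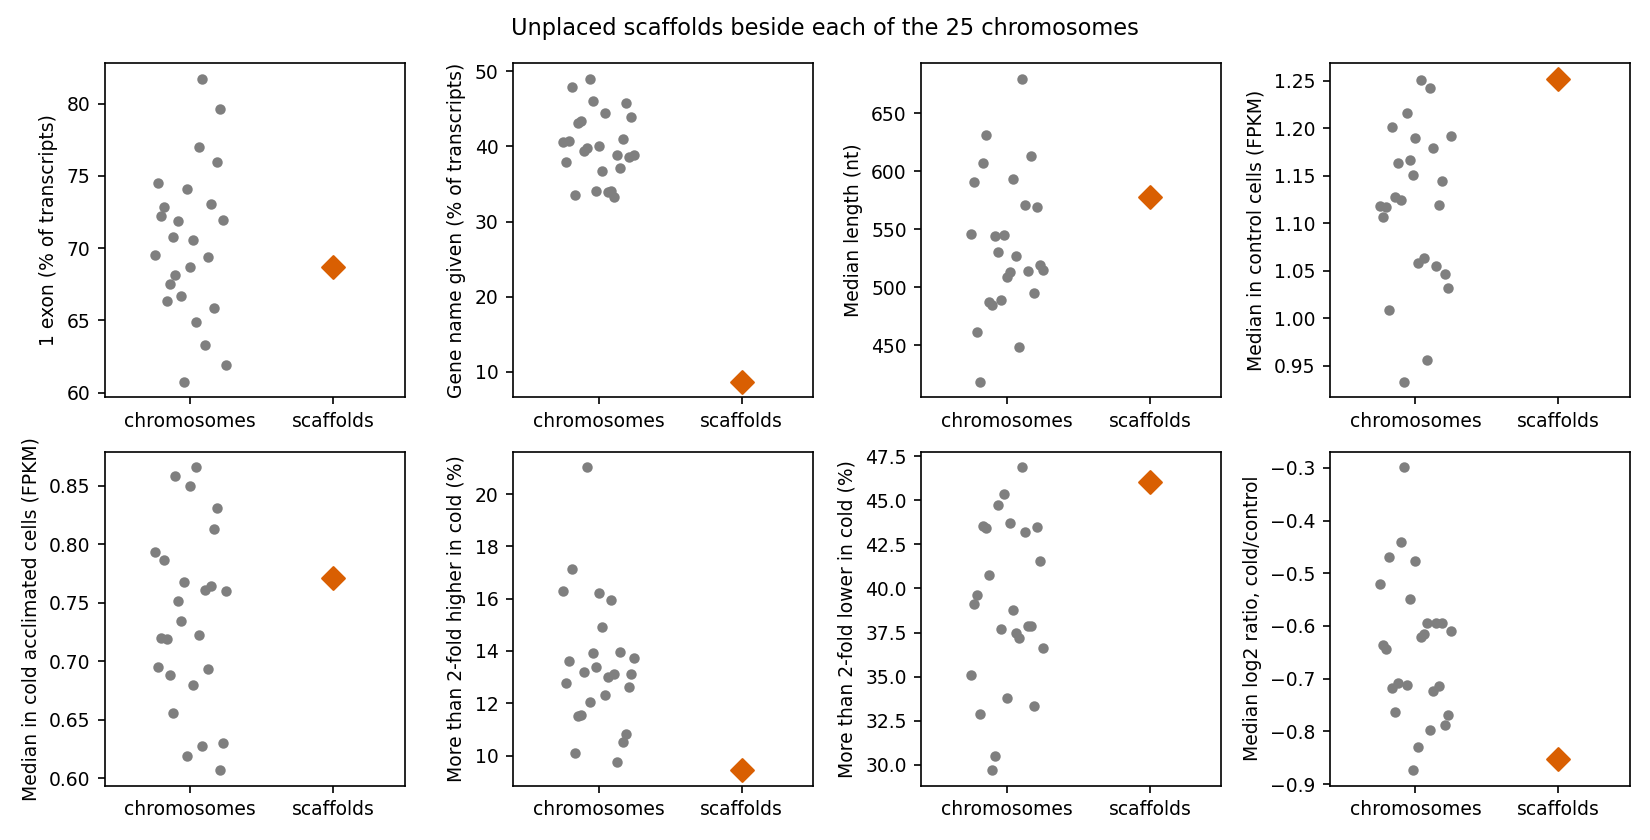
Structure and levels of lncRNAs on the scaffolds (orange diamond) and on each of the 25 chromosomes (grey points, spread sideways for clarity), with the unit on each vertical axis. The axes do not start at 0. The share with a gene name lies below every chromosome (8.58% against 33.3% or more). The share more than 2-fold higher lies just below every chromosome (9.43% against 9.75% or more). The median in control cells lies just above every chromosome (1.2523 against 1.2508 FPKM or less). The other measures lie inside the chromosome range.

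Most scaffold lncRNAs had a lower mean in cold acclimated cells. The cold acclimated mean was below the control mean in 333 of 466 transcripts (71.5%, against 66.5% on the chromosomes) and above it in 133. Among the 456 scaffold transcripts above 0.5 FPKM in at least 1 group, 210 (46.1%, interval 41.5 to 50.6) were more than 2-fold lower, beside 39.4% of the whole table and 39% on the chromosomes. More than 2-fold higher were 43 (9.43%, interval 7.08 to 12.5), beside 13.3% of the whole table and 13.5% on the chromosomes. The deposited table was itself restricted to transcripts that passed 0.5 FPKM in some culture, and these counts to group means above 0.5 FPKM. A counted transcript at or below 0.5 FPKM in 1 group therefore had to be higher in the other. The 10 scaffold transcripts not above 0.5 FPKM in either group were not counted.

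The share more than 2-fold lower lay inside the range of the single chromosomes (29.7% on chromosome 8 to 46.9% on chromosome 18), and the share more than 2-fold higher lay just below theirs (9.75% on chromosome 19 to 21.0% on chromosome 9). The median log2 ratio of the scaffold lncRNAs was -0.85 (interval -1.01 to -0.70), against -0.62 on the chromosomes. Of the 25 chromosomes, 24 had a median above that of the scaffolds, up to -0.30 on chromosome 9, and chromosome 12 was below it (-0.87). The median over the whole table was -0.63. When the groups were scaled so that this median became 0, 92 scaffold transcripts were more than 2-fold higher and 128 lower, so that 41.8% of those past 2-fold were higher, against 17.0% without this scaling. The scaffold median was then -0.22. On that scale 28.1% of scaffold and 23.7% of chromosome transcripts were more than 2-fold lower.

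**Figure D3:**
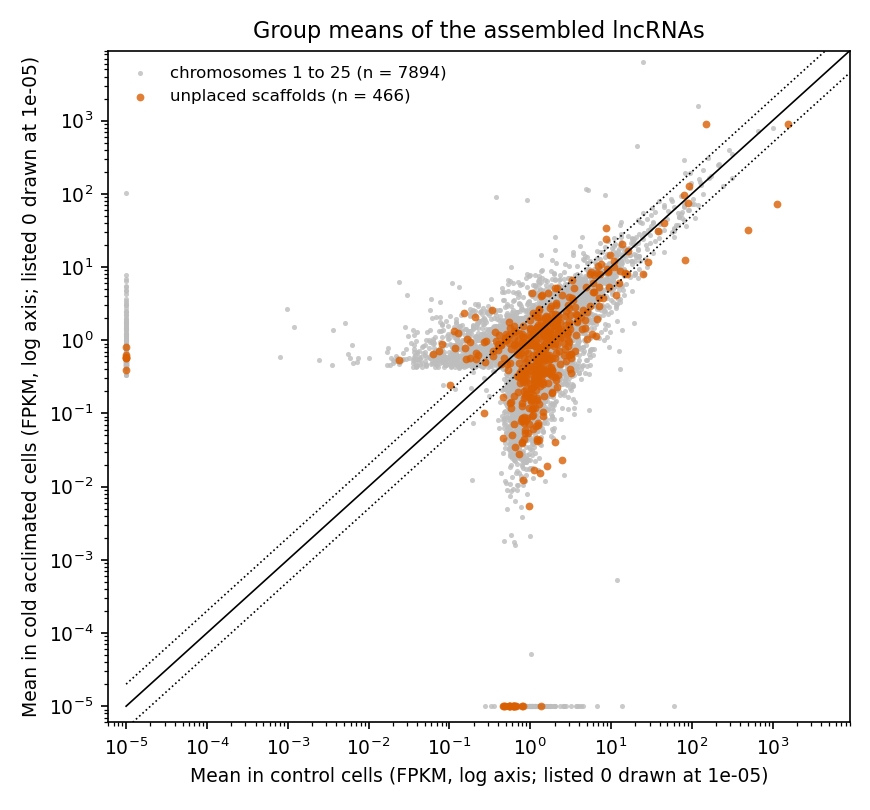
Mean FPKM of each lncRNA in control cells (horizontal) and cold acclimated cells (vertical), both on log axes, for scaffolds (orange, n = 466) and chromosomes (grey, n = 7894). The solid line marks equal means, the dotted lines 2-fold differences, and transcripts listed at 0 are drawn at the left and lower edges. Of the scaffold points, 333 lie below the solid line, and MSTRG.31655.1 on KN150411.1 (148.7 against 902 FPKM) is the highest of those above it.

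The lower levels in cold acclimated cells went with transcript length and exon number to different degrees on scaffolds and chromosomes. Scaffold transcripts under 300 nt had a median log2 ratio of -0.18, those from 300 to under 1000 nt -0.90 and those of 1000 nt or more -1.01, against -0.57, -0.61 and -0.66 on the chromosomes. Of the 43 scaffold transcripts more than 2-fold higher, 22 (51.2%) were shorter than 300 nt, against 12.4% of the 210 more than 2-fold lower. On the chromosomes these shares were 37.5% and 23.8%. By exon number, the scaffold medians were -0.91 for 1 exon, -0.75 for 2 and -0.73 for 3 or more, against -0.80, -0.50 and 0.13 on the chromosomes. The class of 3 or more exons held 53 scaffold transcripts above 0.5 FPKM, and its median had an interval of -1.63 to 0.07. Without MSTRG.31334, MSTRG.31335, MSTRG.31466, MSTRG.31467 and MSTRG.31608, on 3 scaffolds, the remaining 34 transcripts had a median at 0 to 2 decimals. These 5 loci were picked after their mostly low ratios were seen, so leaving them out had to raise the median. With only the transcript of the highest mean FPKM at each locus, the class medians were -0.07 over 31 scaffold transcripts and 0.23 on the chromosomes. Among transcripts with no gene named, the medians were -0.89 on scaffolds and -0.65 on chromosomes. The level also moved with the ratio: the scaffold medians were -1.28 for means under 1 FPKM, -0.48 for 1 to 10 FPKM and -0.24 above 10 FPKM, against -1.14, -0.36 and 0.01 on the chromosomes. The part of low levels in the differences was not tested.

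Scaffolds with many loci had the lowest ratios. The median log2 ratio was -0.29 for the 166 transcripts above 0.5 FPKM on scaffolds with 1 locus, -1.004 for the 195 on scaffolds with 2 or 3 loci and -1.46 for the 95 on scaffolds with 4 or more. More than 2-fold lower were 31.3%, 50.3% and 63.2% of them, and more than 2-fold higher 13.3%, 8.72% and 4.21%. Over all transcripts of the 3 classes, the median control levels were 1.22, 1.37 and 1.21 FPKM. The cold acclimated medians were 1.05, 0.762 and 0.475 FPKM. Many transcripts of the last class were thus under 0.5 FPKM at 18 °C and counted only through their control mean, which fixed the direction of their ratios. With a single median taken for each scaffold, so that each counted once, the medians were -0.31 over 164 scaffolds, -0.91 over 71 and -1.40 over 18. The difference between the outer classes was -1.17 on the log2 scale. It was -1.18 with 1 transcript per locus and -1.25 with only 1-exon transcripts of 300 nt or more, but it was -0.45 among transcripts with a mean under 1 FPKM and -1.25 among those at 1 FPKM or more. Distance to the nearest locus showed a related order on the scaffolds, with medians of -1.15 within 1 kb, -1.23 at 1 to 10 kb and -0.46 farther away or alone. The chromosome medians for the same classes were -0.69, -0.92 and -0.51. These classes were formed after the values were seen, and no test was made between them.

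The scaffold with the most loci was KN149714.1, with 7 loci of 1 exon each between positions 5374 and 21817. These transcripts were 598 to 1552 nt long, with levels from 0.963 to 1.44 FPKM at 28 °C and from 0.0605 to 0.345 FPKM at 18 °C. All 7 transcripts were more than 2-fold lower, with log2 ratios from -2.89 to -1.62. Each was under 0.5 FPKM at 18 °C and so was counted through its control mean, and neighbouring transcripts of a scaffold are not replicates.

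KN149826.1 held 7 transcripts of 6 loci between 13153 and 89417. Its leading transcript, MSTRG.31148.1 with 4 exons and 3317 nt, was at 5.02 FPKM at 28 °C and 1.04 FPKM at 18 °C. The 7 transcripts ranged from 0.570 to 5.02 FPKM at 28 °C and from 0.0412 to 1.04 FPKM at 18 °C, and 5 were more than 2-fold lower. All 7 had a lower mean in the cold acclimated group. Except for MSTRG.31148.1, they were under 0.5 FPKM at 18 °C and so were counted through their control means.

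KN149930.1 and KN150046.1, with 6 loci each, had the same order of the groups in every transcript. On KN149930.1 control means ran from 0.455 to 1.56 FPKM and cold acclimated means from 0.0796 to 0.638 FPKM, and MSTRG.31242.1, the highest by the mean of both groups, was at 1.45 and 0.638 FPKM. On KN150046.1 they ran from 0.518 to 1.20 FPKM and from 0.0449 to 0.475 FPKM, and MSTRG.31329.1, of 3280 nt and the highest by that mean, was at 1.07 and 0.176 FPKM. More than 2-fold lower were 4 transcripts of each scaffold. The loci were spread widely, from 570 to 94277 on the first and from 94 to 132725 on the second. All cold acclimated means on KN150046.1 were under 0.5 FPKM, so its transcripts were counted through their control means, which fixed their direction. On KN149930.1 the same held for MSTRG.31237.1, MSTRG.31239.1 and MSTRG.31241.1. MSTRG.31242.1 and MSTRG.31249.1 were above 0.5 FPKM in both groups, and MSTRG.31243.1 was above it in neither.

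A further scaffold with 6 loci, KN150649.1, was chosen after its values were seen. Its 6 transcripts lay between 1.13 and 1.42 FPKM at 28 °C and between 0.0155 and 0.162 FPKM at 18 °C. All 6 were more than 2-fold lower, with log2 ratios from -3.63 to -2.34. Each was under 0.5 FPKM at 18 °C and so was counted through its control mean. Of the 36 scaffolds with 3 or more loci, 16 had a lower cold acclimated mean in every transcript and 2 in none. The median of 22 of them was below -1 and that of 6 was above 0. KN150691.1, also chosen after its values were seen, was one with no lower transcript: its 3 loci were at 0.181, 2.47 and 3.26 FPKM at 28 °C and at 0.938, 4.14 and 6.65 FPKM at 18 °C. Among scaffolds with 4 or more loci, only KN150580.1 had a median above 0 (0.51).

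**Figure D4:**
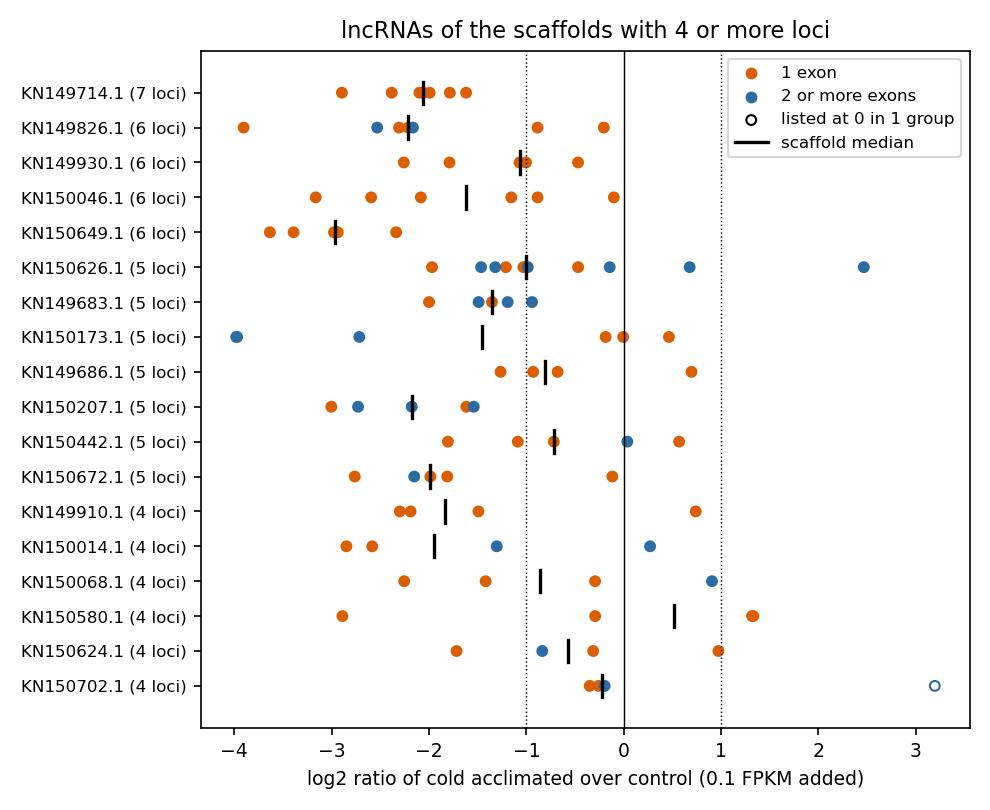
Log2 ratio of the cold acclimated over the control mean (horizontal, 0.1 FPKM added) for each transcript above 0.5 FPKM on the 18 scaffolds with 4 or more loci. Orange points have 1 exon, blue points 2 or more, the open point is listed at 0 in control cells, so that its place depends on the 0.1 FPKM added, black bars are scaffold medians and dotted lines mark 2-fold. Of the 18 medians, 17 lie below 0.

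The summed level on the scaffolds was carried by few transcripts. The control sum was 4699.7 FPKM and the cold acclimated sum 2995.7 FPKM, a log2 ratio of -0.65. The scaffolds held 17.7% of the control sum of the whole table and 9.59% of the cold acclimated sum. These shares also depend on the chromosome sums, which were 21845 FPKM in control and 28205 FPKM in cold acclimated cells (log2 ratio 0.37). Chromosome 20 alone summed to 501 and 6771 FPKM, and the highest single cold acclimated value on the chromosomes was 6404 FPKM. Over the single chromosomes, the median log2 ratio of the sums was -0.21. The 5 most abundant transcripts made up 73.1% and 68.0% of the scaffold sums, against 9.71% and 35.1% for the 5 leading transcripts on the chromosomes. These shares are not like measures, since the 5 were taken from 466 scaffold and from 7894 chromosome transcripts. KN150173.1, KN150345.1 and KN150411.1 together held 78.0% of the control and 72.6% of the cold acclimated scaffold sum, and the other 253 scaffolds summed to 1035 and 819 FPKM (log2 ratio -0.34). The log2 ratio of the sums was -0.05 without KN150173.1 and -1.23 without KN150411.1, so that each of these scaffolds decided its size.

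The most abundant scaffold lncRNA was MSTRG.31599.1, a 1-exon transcript of 2740 nt at KN150345.1:14273-17012 with no gene named. Its mean was 1562 FPKM at 28 °C and 903 FPKM at 18 °C, a log2 ratio of -0.79 and within 2-fold. It was the only lncRNA on its scaffold and made up 33.2% of the control and 30.2% of the cold acclimated scaffold sum.

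KN150173.1 carried the abundant transcripts with the lowest ratios. MSTRG.31461.3 (14837-16461, 3 exons, 864 nt) was at 1133 FPKM at 28 °C and 71.7 FPKM at 18 °C, a log2 ratio of -3.98. MSTRG.31461.1 (14560-16437, 3 exons, 418 nt), of the same locus, was at 499 and 31.7 FPKM, a log2 ratio of -3.97. MSTRG.31462.1 (14838-16437, 2 exons, 923 nt), of another locus, overlapped both and was at 81.5 and 12.3 FPKM (-2.72). These 3 share sequence positions, so they are not separate observations and their split between isoforms is uncertain. The other 3 transcripts of this scaffold were far less abundant, with log2 ratios of 0.46, -0.19 and -0.01. No gene was named at any of them.

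KN150411.1 showed the opposite order in its sum (386 FPKM at 28 °C and 1153 FPKM at 18 °C), while 3 of its 5 transcripts were lower. All its transcripts were given the gene name wu:fi09b08, a clone name. MSTRG.31655.1 (5005-15073, 2 exons, 764 nt) was at 149 FPKM at 28 °C and 902 FPKM at 18 °C, a log2 ratio of 2.60. MSTRG.31655.2 (5005-5704, 587 nt) shares its start and was at 93.1 and 129.1 FPKM (0.47), within 2-fold, as were MSTRG.31655.3 (9.15 and 8.69 FPKM), MSTRG.31656.1 (89.5 and 74.5 FPKM) and MSTRG.31656.2 (45.8 and 39.3 FPKM). Of the 5 transcripts with this name, the higher cold acclimated level was thus past 2-fold in 1.

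Loci with 3 or more scaffold transcripts numbered 9 and held 46 transcripts. The summed level was more than 2-fold lower in cold acclimated cells at MSTRG.31334, MSTRG.31335, MSTRG.31466 and MSTRG.31608. It was more than 2-fold higher at MSTRG.31477 and MSTRG.31655. At MSTRG.31467, MSTRG.31840 and MSTRG.31938 it was lower but within 2-fold. MSTRG.31334 on KN150031.1 had 12 transcripts of 2 to 4 exons that summed to 19.6 FPKM at 28 °C and 5.47 FPKM at 18 °C. Of these, 10 had a lower cold acclimated mean, 9 were more than 2-fold lower and 1 was more than 2-fold higher. Of the 9, only MSTRG.31334.13 and MSTRG.31334.16 were above 0.5 FPKM at 18 °C (1.96 and 0.622 FPKM). The others were counted through their control means, which fixed their direction. The higher one, MSTRG.31334.3, was at 0.382 FPKM at 28 °C and was counted through its cold acclimated mean. MSTRG.31335, which overlaps MSTRG.31334, summed to 10.5 and 2.45 FPKM, with all 3 transcripts more than 2-fold lower. Of the 3, MSTRG.31335.1 was at 0.317 FPKM at 18 °C and was counted through its control mean.

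On KN150187.1 the overlapping loci MSTRG.31466 and MSTRG.31467 differed. The 5 transcripts of MSTRG.31466 summed to 11.7 FPKM at 28 °C and 2.76 FPKM at 18 °C, and all 5 were more than 2-fold lower. The 3 transcripts of MSTRG.31467 summed to 10.2 and 9.96 FPKM, and only 1 was lower. MSTRG.31608 on KN150353.1 summed to 7.52 and 2.37 FPKM over 6 transcripts, with 4 more than 2-fold lower and 1 higher. MSTRG.31477 on KN150196.1 was higher, with sums of 4.05 and 8.36 FPKM, none of its 3 transcripts lower and 2 past 2-fold. The sums of MSTRG.31840 on KN150626.1 were 10.5 and 6.93 FPKM over 7 transcripts, of which 2 were more than 2-fold lower and 1 higher. MSTRG.31938 on KN150696.1, with 4 transcripts of 3268 to 5908 nt, summed to 25.9 and 21.97 FPKM. At several of these loci single transcripts thus lay on both sides of equality, and the levels of overlapping isoforms are uncertain. Under 0.5 FPKM at 18 °C, and counted through their control means, were MSTRG.31466.2, MSTRG.31466.5, MSTRG.31467.3, MSTRG.31608.2, MSTRG.31608.4 and MSTRG.31608.6. The higher transcripts MSTRG.31608.1 and MSTRG.31840.3 were under 0.5 FPKM at 28 °C and were counted through their cold acclimated means.

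**Figure D5:**
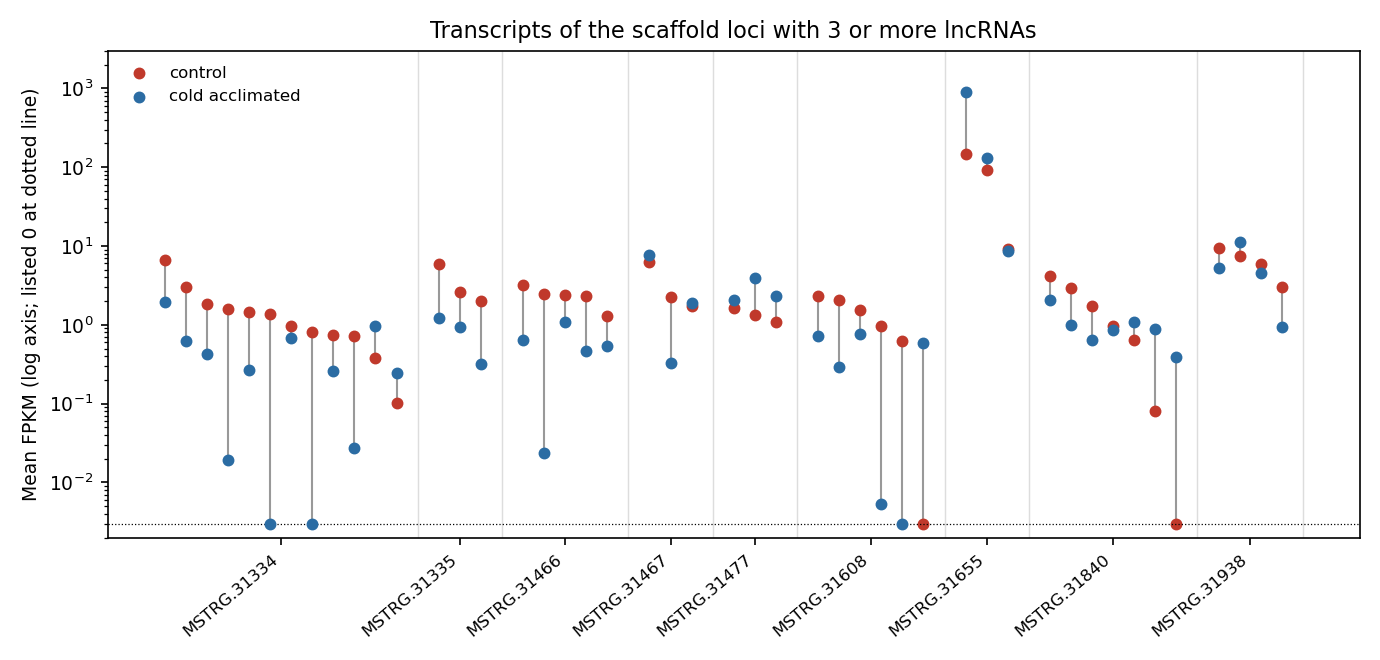
Control (red) and cold acclimated (blue) mean FPKM, on a log axis, of each transcript of the 9 scaffold loci with 3 or more transcripts, joined by a line. Transcripts listed at 0 are drawn on the dotted line. MSTRG.31655 has the highest levels, and at MSTRG.31335 and MSTRG.31466 all transcripts are lower in cold acclimated cells.

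Of the 12 scaffold transcripts given a symbol other than a clone name, 6 were past 2-fold. This was near the share above 0.5 FPKM over all scaffold transcripts (55.5%) and over the whole table (52.7%). The levels of the 12 are those of the assembled lncRNA, not of the protein-coding gene. The symbols' roles are known mainly from mammals. The transcript with the name PDGFRB, a receptor for platelet-derived growth factor, was MSTRG.31501.1 (KN150207.1:95313-96779, 2 exons, 1236 nt). Its level was 1.84 FPKM at 28 °C and 0.192 FPKM at 18 °C (log2 ratio -2.73). It was one of 5 transcripts on its scaffold, all more than 2-fold lower. For unc5a, a netrin receptor, 3 transcripts lay on KN150681.1. MSTRG.31917.1 (253424-253967) was at 3.11 and 1.43 FPKM (-1.07), MSTRG.31916.1 (217761-218007) at 1.34 and 0.293 FPKM (-1.88), and MSTRG.31915.1 (110620-110846) at 0.618 FPKM and listed at 0. All 3 had 1 exon and a lower cold acclimated mean. Of them only MSTRG.31917.1 was above 0.5 FPKM at 18 °C. The others, and MSTRG.31501.1, were counted through their control means, which fixed their direction.

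For snx1b, a sorting nexin of endosomes, MSTRG.31573.1 (KN150311.1:6520-6757, 238 nt) was at 0.703 and 0.197 FPKM (-1.43). For MCC, named for mutation in colorectal cancer, MSTRG.31945.5 (KN150702.1:74842-75599, 2 exons, 725 nt) was listed at 0 at 28 °C and was at 0.816 FPKM at 18 °C, while MSTRG.31949.1 was at 1.74 and 1.34 FPKM, within 2-fold. The direction was fixed for MSTRG.31573.1, counted through its control mean, and for MSTRG.31945.5, counted through its cold acclimated mean. The transcripts with the other symbols were within 2-fold, that of SPHK1 only because 0.1 FPKM was added. Their control and cold acclimated means were 0.486 and 1.06 FPKM for SPHK1, a sphingosine kinase, 10.9 and 12.1 FPKM for PDCL3, a phosducin-like chaperone, and 3.00 and 1.77 FPKM for TRPM6, a magnesium channel. For ACADSB, an acyl-CoA dehydrogenase, they were 1.3002 and 2.56 FPKM, and for prp 0.796 and 0.421 FPKM.

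The extreme ratios belonged mostly to weakly expressed transcripts, and their order depended on the 0.1 FPKM added. The highest on this scale was that of MSTRG.31287.1 (KN149992.1:39068-39831, 2 exons, 310 nt), at 0.150 FPKM at 28 °C and 2.32 FPKM at 18 °C (3.28), and MSTRG.31110.1 (KN149796.1:8205-8485, 281 nt) was at 0.208 and 2.103 FPKM (2.84). Of the 5 highest, MSTRG.31945.5, MSTRG.31747.1 and MSTRG.31608.1 were listed at 0 in control cells, and the last 2 were at 0.633 and 0.592 FPKM at 18 °C. With 0.01 FPKM added, the 3 were above MSTRG.31287.1. The lowest with 0.1 FPKM added was that of MSTRG.31466.2 (KN150187.1:11007-19065, 3 exons, 1101 nt), at 2.49 and 0.0234 FPKM (-4.39). MSTRG.31143.1 (KN149826.1:53915-55268, 1354 nt) was at 2.01 and 0.0412 FPKM (-3.90), and MSTRG.31334.6 (KN150031.1:9-7403, 4 exons, 1086 nt) was at 1.36 FPKM at 28 °C and was listed at 0 at 18 °C. The 2 transcripts of MSTRG.31461 described above complete the 5 lowest. With 0.01 FPKM added MSTRG.31334.6 came below MSTRG.31466.2, and with 1 FPKM added MSTRG.31461.3 was lower than MSTRG.31466.2 (-3.96 against -1.77).

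Transcripts listed at 0 numbered 6 in the control column (1.29%, against 3.03% on the chromosomes) and 16 in the cold acclimated column (3.43%, against 4.46%). The 6 were at 0.388 to 0.816 FPKM at 18 °C (median 0.580) and 239 to 725 nt long. The 16 were at 0.461 to 1.36 FPKM in control cells (median 0.614), and 12 of them had 1 exon. A 0 in a mean of FPKM values does not show that a transcript was absent, and with the depth unknown no limit can be given.

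The longest and the most spliced scaffold lncRNAs did not share a direction. MSTRG.30981.1 (KN149681.1:73-8189, 8117 nt) was at 3.79 and 2.22 FPKM in control and cold acclimated cells (-0.75). MSTRG.31475.1 (KN150195.1:11243-18557, 7315 nt) was at 1.303 and 0.361 FPKM (-1.60), and MSTRG.31044.1 (KN149725.1:47424-53663, 6240 nt) at 2.02 and 2.26 FPKM (0.15). All 3 had 1 exon. Of the most spliced, MSTRG.31819.1 (KN150608.1:24854-33252, 6 exons, 1376 nt), given the name CABZ01009512.2, was at 1.77 and 2.78 FPKM (0.62). MSTRG.31552.1 (KN150270.1:1394-3509, 6 exons, 693 nt) was at 1.74 and 0.348 FPKM (-2.04), and MSTRG.31449.1 (KN150170.1:28668-34267, 5 exons, 1994 nt) at 6.78 and 8.32 FPKM (0.29). Of these 6 transcripts, 2 were thus past 2-fold, both lower in cold acclimated cells.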

How the data were processed

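RNA of 3 control and 3 cold acclimated ZF4 cultures was sequenced by the authors from rRNA-depleted stranded libraries. Per the labels and the study's methods, reads were aligned with HISAT2 2.1.0 to GRCz10 and assembled with StringTie 1.3.3, and lncRNAs were kept by length, exon number, coding potential and level (FPKM above 0.5 in at least 1 sample). The deposited table gives each transcript's position, exon number, length, nearest gene name and 1 FPKM value per group, read as the authors' mean. Library depth is not in it. Its 4 columns of the authors' own comparison (log fold change, p-value, false discovery rate and direction) were not used. Since only group values were given, no planned test over cultures could be run.

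Positions count from 1. Ratios were log2((cold acclimated + 0.1)/(control + 0.1)), counted past 2-fold among transcripts above 0.5 FPKM in at least 1 group. Shares have 95% Wilson intervals and medians 95% binomial order-statistic intervals, for counting error only. Named were the 5 most abundant transcripts, the 5 highest and 5 lowest ratios, the 4 scaffolds with most loci, the 3 longest transcripts, the 3 with most exons, loci with 3 or more transcripts, and transcripts past 2-fold with a gene symbol. Members and lists were chosen with earlier results of these data known. Other pseudocounts, filters, a scaling and 1 transcript per locus were tried. Python 3.11.15, pandas 2.3.3 and scipy 1.17.1 were used, and the counting was tested on simulated data.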

Additional observations from a re-analysis of the deposited data

How the results depend on the processing

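Of 42 alternative values for the main results, 25 counted as unmoved: they stayed inside the interval of the reported value or, for counts, within 1.5 times of it. Differences of medians had no interval of their own, and their limit was taken from the width of the interval of a class median. The summed FPKM had no interval, so its alternatives were all counted as moved. Among these 42 values no log2 ratio or difference of log2 ratios turned its direction, and counts, levels, lengths and shares could not. Some named transcripts within 2-fold did turn under the scaling, such as MSTRG.31655.3 (from -0.07 to 0.56) and MSTRG.31938.3 (from -0.37 to 0.26). The intervals can be wide. The median log2 ratio of transcripts with 3 or more exons, scaffolds minus chromosomes, was -0.86. It became -0.30 with 1 transcript per locus and -0.13 without the 5 loci of 3 scaffolds, and both still counted as unmoved. With a pseudocount of 1 FPKM the transcripts more than 2-fold higher numbered 13 and those lower 54, the median log2 ratio was -0.48, and the difference between scaffolds with 4 or more loci and those with 1 was -0.52. With a filter at 1 FPKM 23 were higher. After scaling that set the table-wide median log2 ratio to 0, 92 were higher and 128 lower, the median log2 ratio was -0.22 and that of the sums -0.0158. Past 4-fold were 18 higher and 91 lower. The log2 ratio of the sums was -0.58 without the most abundant transcript, which is the same as without its scaffold, -0.34 without the 3 leading scaffolds, -0.0526 without KN150173.1 and -1.23 without KN150411.1. The share with 1 exon was 76.7% with 1 transcript per locus. Under the reported setting and 6 alternatives (both pseudocounts, no filter, the filter at 1 FPKM, the scaling and 1 transcript per locus), the scaffold share more than 2-fold lower was above that on the chromosomes, by 28.1% to 23.7% under the scaling. Of 64 named transcripts past 2-fold, 49 stayed past it under the scaling, 64 with a pseudocount of 0.01 FPKM and 25 with 1 FPKM. The alternatives without single scaffolds or without the 5 loci, and the classes by number of loci and by exons, were chosen after seeing the data. No paired analysis was possible because only group means were given, and for the same reason no replicate could be left out. Depth limits were not assessable, since the table holds no counts.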
